A study of Arabidopsis thaliana with 6 samples.

Results

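The 7 genes described here are AT3G15450, ATL8, MCCA, MCCB, IVD, ETFQO and D2HGDH, a set of Arabidopsis genes induced when leaves run short of carbon, most of them enzymes of leucine and lysine breakdown. They are defined by gene symbol or locus code, with no threshold on a measured value, although earlier results of these data were known when they were chosen. All 7 had a named probe set, out of 13286 genes with a name on the array. Their transcripts were measured in leaves of 15-day-old seedlings on 6 single-colour ATH1 arrays. The chr11-1 chr17-1 double mutant and wild-type Col-0 had 3 arrays each, and neither was treated. CHR11 and CHR17 encode ISWI-type chromatin remodellers, motor proteins that move nucleosomes along DNA, and the mutant carries an allele of each in every cell. Whether the replicate arrays stand for different plants is not stated, and the tests below therefore rest on array-to-array spread alone, which may be technical.

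A leaf in prolonged darkness or with too little sugar burns protein in place of carbohydrate. Leucine, isoleucine and valine lose their amino group in the mitochondrion, the resulting acids are oxidised by a branched-chain keto acid dehydrogenase, and IVD (isovaleryl-CoA dehydrogenase) takes the next oxidation step of the leucine branch. MCCA and MCCB are the biotin-bearing and the other subunit of 3-methylcrotonyl-CoA carboxylase, which follows IVD. D2HGDH (D-2-hydroxyglutarate dehydrogenase) oxidises a by-product linked to lysine breakdown. IVD and D2HGDH pass their electrons to the electron transfer flavoprotein, and ETFQO hands them on to ubiquinone in the respiratory chain. AT3G15450 belongs to a family of small proteins first known from aluminium-treated plants and is widely used as a marker of sugar starvation, and ATL8 is a RING-type ubiquitin ligase of the ATL family that is raised by starvation. The energy-sensing kinase SnRK1 and its bZIP partner factors are known to switch on many of these genes.

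The deposited values are log2 expression levels, so a difference of 1 is a doubling of signal, and array medians lay between 4.73 and 4.77. Levels of different genes are not compared, because each probe set binds with its own strength. The comparison asks which leaf transcripts differ between the double mutant and wild type, and here whether the starvation and breakdown genes moved as a unit. In the chr11-1 chr17-1 leaves 1 of the 7 genes, AT3G15450, rose, 0 fell, and 6 did not pass the test (limma, Benjamini-Hochberg adjusted p below 0.05 over 22746 probe sets). Over all probe sets 28.6% passed, 14.0% as higher and 14.7% as lower in the mutant, so 1 call in 7 genes, all of it upward, is close to the share of higher calls over the whole array and is no result about the set. Of the 9865 probe sets with a mean level between the lowest and the highest of the 7 genes, 49.5% passed. The median log2 difference of the 7 genes was 0.17, against -0.0028 over all probe sets.

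Among the starvation markers, AT3G15450 (probe set 258402_at) read 10.04, 9.84 and 10.03 in the double mutant arrays, against 9.29, 9.25 and 9.37 in the Col-0 arrays. All 3 mutant arrays lay above all 3 wild-type arrays, with a gap of 0.47 between the nearest pair. The mean was 9.97 ± 0.11 in the mutant and 9.30 ± 0.06 in Col-0 (SD, n = 3 each), a log2 difference of 0.67 (SE 0.09), or 1.59-fold (limma adjusted p = 0.000362). Its probe set is bright, at the 93.8th percentile of probe sets by mean level.

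ATL8 (AT1G76410, 259982_at), the ubiquitin ligase, read 5.21, 5.31 and 5.49 in the mutant, against 5.40, 4.95 and 5.16 in Col-0. The groups overlapped, since the highest Col-0 array stood above 2 of the mutant arrays. The log2 difference was 0.17 with a 95% interval of -0.11 to 0.45 and did not pass (limma adjusted p = 0.404). The change of AT3G15450 exceeded that of ATL8 by 0.50, with an exact permutation p of 0.1 (two-sided, 3 arrays a genotype), the smallest this design allows.

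**Figure D1:**
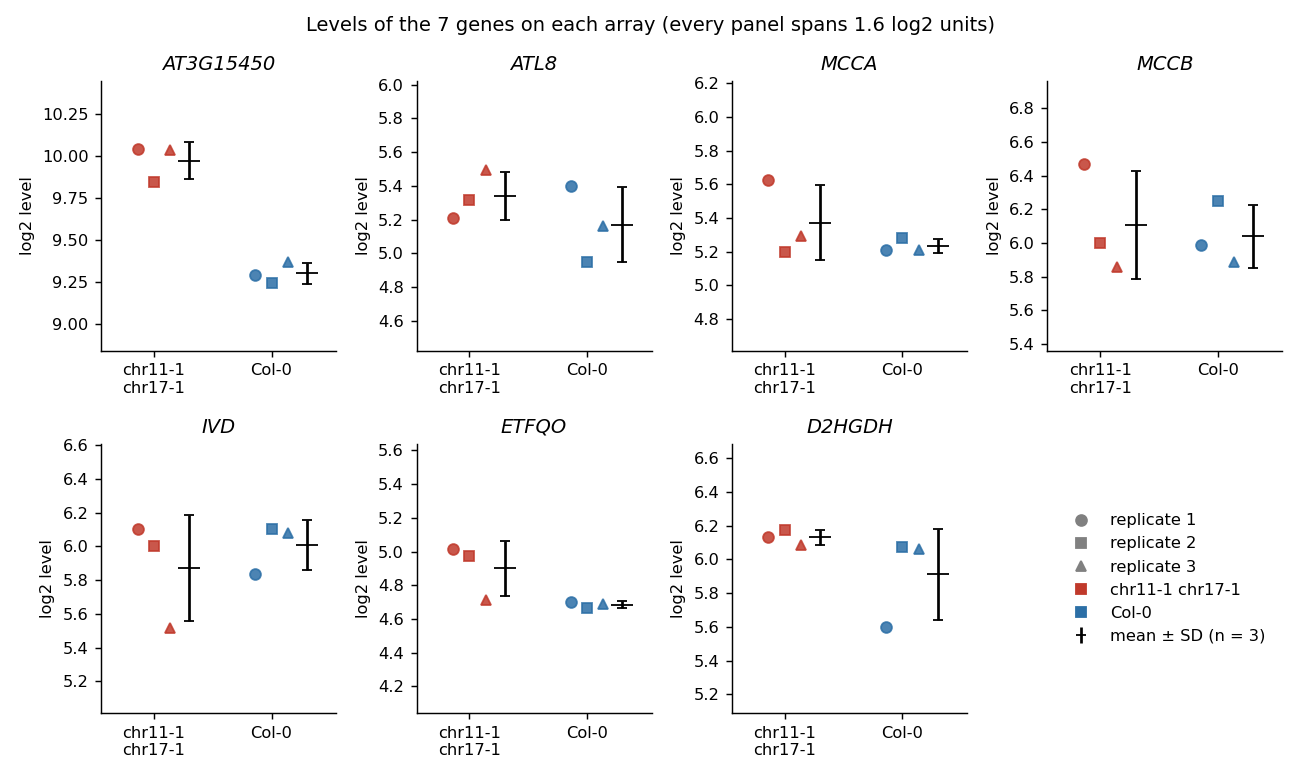
Log2 level (vertical axis, log2 units) of each of the 7 genes on each array, chr11-1 chr17-1 in red and Col-0 in blue. Symbols mark replicates 1 to 3 and the black bar is the mean ± SD of 3 arrays. AT3G15450 shows a clear gap between the genotypes (0.47), while ETFQO and D2HGDH are separated by 0.012 and 0.015 and the other 4 genes overlap.

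In the leucine branch, none of the 3 enzyme genes passed the test. IVD (AT3G45300, 252570_at) read 6.10, 6.005 and 5.51 in the mutant, against 5.84, 6.11 and 6.08 in Col-0. Mutant replicate 3 was the lowest array at 5.51 and Col-0 replicate 1 the next at 5.84. The remaining arrays of both genotypes lay between 6.005 and 6.11. Its log2 difference was -0.13 (95% interval -0.47 to 0.20, limma adjusted p = 0.613), the only negative one of the 7. Without mutant replicate 3 it was 0.05 (limma adjusted p = 0.857, range over its alternatives 0.289 to 0.857), so its sign rests on that array.

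MCCA (AT1G03090, 263118_at) read 5.63, 5.20 and 5.29 in the mutant, against 5.21, 5.28 and 5.21 in Col-0. MCCB (AT4G34030, 253279_at) read 6.47, 6.001 and 5.86 in the mutant, against 5.99, 6.25 and 5.89 in Col-0. The genes of both carboxylase subunits were thus highest in mutant replicate 1, while the other 2 mutant arrays lay within or close to the Col-0 range. The log2 differences were 0.14 (95% interval -0.12 to 0.40) for MCCA and 0.07 (-0.28 to 0.42) for MCCB, with limma adjusted p of 0.479 and 0.831. Without mutant replicate 1 MCCB had -0.11 and MCCA 0.011. The control probe set for 25S ribosomal RNA read 8.90 on that array and 10.85 on each of the other mutant arrays, against 10.49, 10.32 and 10.33 in Col-0. The part of that array's quality in the MCCA and MCCB values was not tested.

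On the route to ubiquinone, ETFQO (AT2G43400, 260536_at) read 5.02, 4.97 and 4.71 in the mutant, against 4.701, 4.66 and 4.69 in Col-0. Each mutant array was above each wild-type array, but the third by no more than 0.012. The log2 difference was 0.22 (95% interval -0.0085 to 0.44) and missed the threshold (limma adjusted p = 0.154). It passed without mutant replicate 3 (0.31, limma adjusted p = 0.0402, range over its alternatives 0.0402 to 0.353). Its probe set lies at the 50.4th percentile of level, the lowest of the 7, and no measure of background was used here.

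D2HGDH (AT4G36400, 246162_at) read 6.13, 6.17 and 6.09 in the mutant, against 5.599, 6.07 and 6.06 in Col-0. The mutant arrays again lay above all Col-0 arrays, by 0.015 at the nearest, and most of the difference in means came from the low first Col-0 array. The log2 difference was 0.22 (95% interval -0.07 to 0.50, limma adjusted p = 0.267). Without Col-0 replicate 1 it was 0.06. In all, 3 of the 7 genes had every mutant array above every wild-type array, against 19.4% of all probe sets, and 0 had every mutant array below, against 20.1%.

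A missed threshold does not show equal levels. For the 6 genes that did not pass, a difference between 0.30 (ETFQO) and 0.46 (MCCB) would have been needed at the spread each showed. The upper ends of their 95% intervals lay between 1.15-fold (IVD) and 1.42-fold (D2HGDH) higher in the mutant, and the lower ends between 0.723-fold (IVD) and 0.994-fold (ETFQO). The lower end for AT3G15450 was 1.38-fold. These leaves are bulk samples, in which fewer cells of a type and less RNA per cell cannot be told apart.

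Read array by array, the 7 genes spread widely around their Col-0 means in the mutant. In mutant replicate 1, 5 of the 7 had their highest mutant value and 1 its lowest, and in mutant replicate 3, 4 had their lowest and 1 its highest. Relative to the Col-0 mean, mutant replicate 1 ran from 0.04 (ATL8) to 0.74 (AT3G15450), with every gene above 0. Mutant replicate 3 ran from -0.49 (IVD) to 0.73 (AT3G15450), with ATL8 at 0.32. Mutant replicate 2 ran from -0.04 (MCCA and MCCB) to 0.54 (AT3G15450). AT3G15450 was the highest of the 7 on each mutant array.

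**Figure D2:**
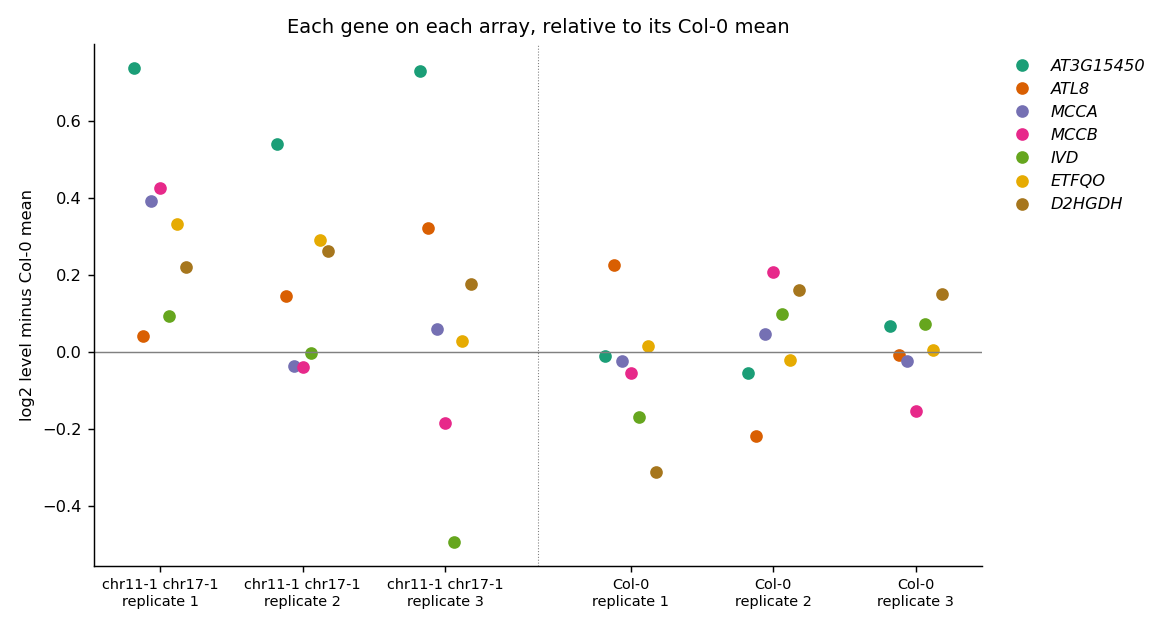
Log2 level of each of the 7 genes minus its own Col-0 mean (vertical axis, log2 units) on the 3 chr11-1 chr17-1 arrays and the 3 Col-0 arrays, 1 colour per gene. AT3G15450 stands between 0.54 and 0.74 in the mutant arrays, and the 6 other genes scatter from -0.49 to 0.43 there.

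The size of the change was compared between genes as the difference of their log2 levels within each array, for all 21 pairs. The change of AT3G15450 exceeded that of IVD by 0.80 (pooled SD 0.28), the largest difference in change of the 21. The exact permutation test over arrays gave a two-sided p of 0.1 for 7 pairs, the smallest that 3 against 3 arrays allow, and adjusted over the 21 pairs the smallest was 0.3. Of these 7 pairs, 5 set AT3G15450 against another gene, and the others set IVD against ETFQO (-0.35, pooled SD 0.16) and against D2HGDH (-0.35, pooled SD 0.22). With 3 arrays a genotype this exact test cannot pass 0.05 for any pair. The subunit genes MCCA and MCCB differed in their change by 0.07 (pooled SD 0.15), which is less than the spread between arrays, and ETFQO and D2HGDH by -0.0034 (pooled SD 0.22).

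The wider breakdown routes were covered by lists chosen from general knowledge, with earlier results of these data known. From here on, a listed gene counts as measured where a probe set carries its name alone. The annotation named genes for 14016 probe sets, while 22746 were tested. A listed gene that is not counted may therefore still be on the array without a name. Of 18 genes listed for leucine, isoleucine and valine breakdown, 9 were measured under a name, IVD, MCCA and MCCB among them. Here 3 rose, 2 fell and 4 did not pass, with a median log2 difference of 0.07. Over all probe sets 28.6% passed, and 49.5% of those within the level range of the 7 genes. The largest rise was that of AT5G09300, listed as an alpha subunit of the branched-chain keto acid dehydrogenase, the step before IVD. It read 7.01, 7.12 and 7.30 in the mutant, against 6.06, 5.90 and 5.96 in Col-0, a 2.25-fold rise with no overlap (limma adjusted p = 1.53e-05). AT2G26800, listed as the lyase that ends the leucine branch, rose 1.41-fold (limma adjusted p = 0.00231). So genes listed for the step before IVD and for the end of the branch passed as higher, while IVD, MCCA and MCCB did not pass.

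The hydratase gene AT4G16800, placed in the leucine branch by similarity, fell by 0.36 (limma adjusted p = 0.0269). That call was lost without mutant replicate 2 (-0.28, adjusted p = 0.107), Col-0 replicate 2 (-0.35, 0.0846) or Col-0 replicate 3 (-0.31, 0.108) (limma, all alternatives between 0.00956 and 0.108). With all 6 arrays it was also lost with a trended prior (0.0566). In the valine branch, AT4G20930, listed as 3-hydroxyisobutyrate dehydrogenase, rose by 0.53 (limma adjusted p = 0.00478). ALDH6B2, methylmalonate semialdehyde dehydrogenase and the enzyme after it, fell, with 7.96, 7.89 and 7.85 in the mutant, against 8.44, 8.49 and 8.38 in Col-0. Its log2 difference was -0.54 (limma adjusted p = 0.000883). AT4G31810, listed as a hydroxyacyl-CoA hydrolase, had 0.06. Successive steps of a single branch thus moved in opposite directions.

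Lysine breakdown had 6 of 7 listed genes measured, of which 3 rose, 0 fell and 3 did not pass, with a median of 0.33. Higher calls made up 14.0% of all probe sets and 24.5% of those within the level range of the 7 genes. ALDH7B4, an aldehyde dehydrogenase of the lysine route that is also raised by drought, had 8.22, 8.27 and 8.42 in the mutant, against 6.89, 7.26 and 7.11 in Col-0. That is a 2.33-fold rise with no overlap between genotypes (limma adjusted p = 2.20e-05). AT1G07040, listed as the enzyme that makes hydroxyglutarate for D2HGDH to oxidise, rose by 0.68 (limma adjusted p = 0.00255). AT4G33150, which encodes the entry enzyme LKR/SDH, rose by 0.45 (limma adjusted p = 0.00799). AT5G52810 and AT2G24580, listed for the pipecolate side branch, had -0.05 and -0.19, and D2HGDH itself did not pass.

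Of the 5 genes of the electron transfer flavoprotein route, which include IVD, ETFQO and D2HGDH, 0 passed limma with all 6 arrays, and 0 had an unadjusted p below 0.05. ETFALPHA and ETFBETA encode the subunits of the flavoprotein. ETFALPHA read 7.45, 7.25 and 7.21 in the mutant, against 7.20, 7.21 and 7.06 in Col-0, with a log2 difference of 0.15 (limma adjusted p = 0.352). ETFBETA read 6.86, 6.73 and 6.33 in the mutant, against 6.69, 6.86 and 7.22 in Col-0, with -0.28 (limma adjusted p = 0.258). Like IVD, ETFBETA was lowest in mutant replicate 3. Over the 13 measured genes of the 3 routes that are not among the 7, 6 rose, 2 fell and 5 did not pass, where 28.6% of all probe sets and 49.5% of those within the level range of the 7 genes passed in either direction.

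**Figure D3:**
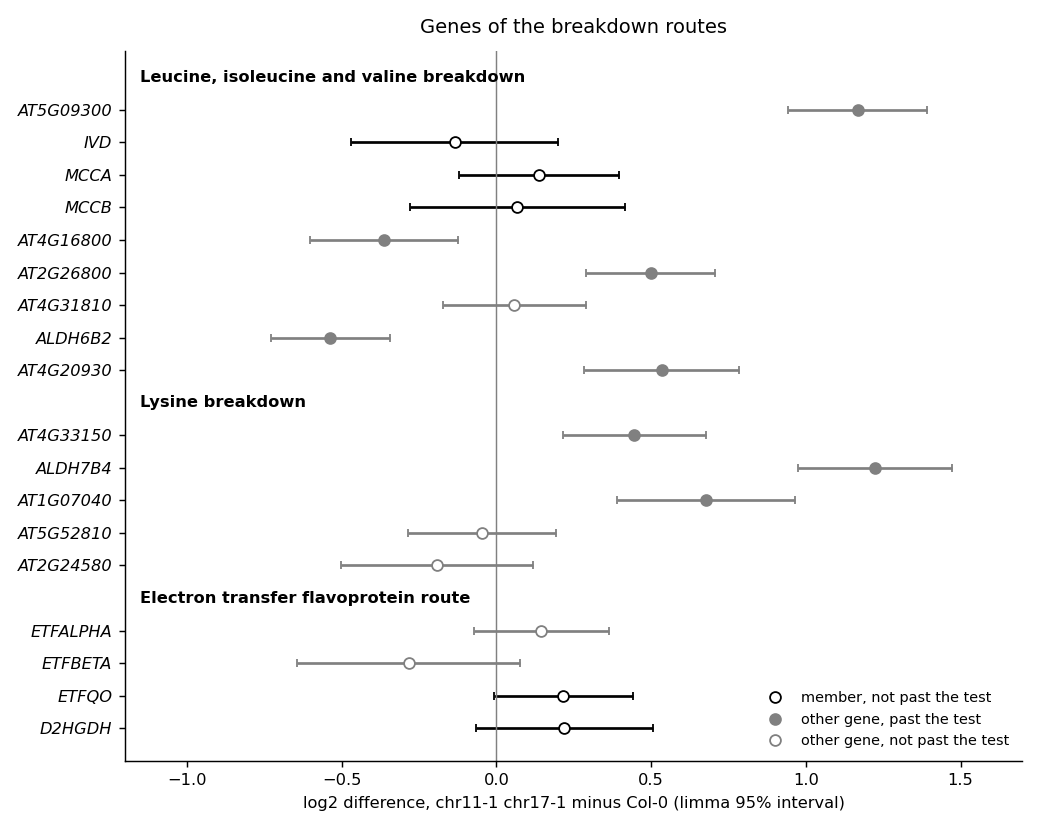
Log2 difference, chr11-1 chr17-1 minus Col-0 (horizontal axis), with limma's 95% interval for each named gene of the breakdown routes, black for genes among the 7 and grey for others, filled where past the test. The 5 enzyme genes among the 7 lie between -0.13 and 0.22, and AT5G09300 and ALDH7B4 at 1.17 and 1.22.

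Named starvation markers other than the set were sparse, with 3 of 25 listed genes measured under a name, AT3G15450 and ATL8 included. The third, AKINBETA1, a starvation-induced subunit of SnRK1, read 8.48, 9.005 and 9.27 in the mutant, against 8.44, 8.30 and 8.24 in Col-0. It rose by 0.59 (limma adjusted p = 0.0238), with the first mutant array close to the Col-0 arrays. The call was lost without mutant replicate 2 or 3 or without Col-0 replicate 2 or 3, at 0.42 to 0.58 and limma adjusted p of 0.0776 to 0.0826 (range over its alternatives 0.000556 to 0.0826).

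All 5 measured genes of the 16 listed SnRK1 subunits and bZIP partner factors rose, against 14.0% of all probe sets, and AKINBETA1 is among them. AT4G16360, which encodes the subunit KINbeta2, rose by 0.75 (limma adjusted p = 0.000139), from separate groups of 8.90, 8.72 and 8.72 in the mutant and 8.07, 8.04 and 7.97 in Col-0. The bZIP factor genes bZIP44 and BZIP53 rose by 0.75 and 0.52 (limma adjusted p = 0.013 and 0.00132). For bZIP44 the mutant arrays read 5.69, 4.93 and 4.85, with replicate 1 well above the others, against 4.50, 4.32 and 4.40 in Col-0. Its smallest difference over the alternatives was 0.48. AT2G28060, which encodes KINbeta3 and was named after its value was seen, rose by 0.31 (limma adjusted p = 0.0475). Its call was lost when any array but mutant replicate 2 was left out (0.22 to 0.34, limma adjusted p up to 0.143, range over its alternatives 0.0303 to 0.143), and also with a trended prior (0.0564) or array weights (0.0718). That of bZIP44 was lost without Col-0 replicate 2 (0.70, limma adjusted p = 0.0553, range 0.0037 to 0.0553). The catalytic subunits of the kinase were not analysed here.

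AT3G15450 and its 4 relatives, a list added once the names on the array were known, all rose, against 14.0% of all probe sets. AT4G27450 had the largest change, with 7.86, 7.62 and 7.88 in the mutant, against 6.02, 6.03 and 6.02 in Col-0, a 3.40-fold rise (limma adjusted p = 7.08e-07). AT3G22850 rose 2.52-fold and AILP1 1.83-fold, with limma adjusted p of 1.81e-05 and 3.60e-05. AT5G43830, which was named after its value was seen, rose 1.21-fold (limma adjusted p = 0.0441). Without mutant replicate 1 or 2, or without Col-0 replicate 2 or 3, it had 0.24 to 0.28 and no longer passed (limma adjusted p from 0.0989 to 0.153, range over its alternatives 0.0124 to 0.153). Probes of such related genes may share signal in part, which was not tested. For ATL8, the other named ATL genes were ATL5 (0.12) and ATL63 (0.26), and neither passed (limma adjusted p = 0.599 and 0.0866). ATL63 passed without mutant replicate 3 (0.34, limma adjusted p = 0.0367, range over its alternatives 0.0367 to 0.257).

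Breakdown of other amino acids gave 1 rise and 1 fall in 4 measured of 22 listed genes. For comparison, 28.6% of all probe sets passed in either direction. The share was 49.5% within the level range of the starvation and breakdown genes described first. DELTA-OAT, ornithine aminotransferase of arginine breakdown, rose by 0.81 (limma adjusted p = 0.000247), and MGL, methionine gamma-lyase, fell by 0.56 (0.00974). The proline dehydrogenase gene AT5G38710 (-0.06) and the tyrosine aminotransferase gene AT5G36160 (-0.13) did not pass. AT5G38710 read 3.81 to 4.04 over the arrays, within the 3.49 to 4.46 of the root, flower and seed markers. At that level a missed threshold says little. In the opposite direction of metabolism, synthesis of leucine, isoleucine, valine and lysine had 0 rises and 2 falls in 5 measured of 21 listed genes. Lower calls made up 14.7% of all probe sets, and with 5 genes measured the 2 falls are no result about the list. AT3G23940, listed as dihydroxyacid dehydratase, fell by 0.73 (limma adjusted p = 0.00109), and AT2G31810, listed as a regulatory subunit of acetohydroxyacid synthase, by 0.44 (0.0111). The call of AT2G31810 was lost without Col-0 replicate 3 (-0.37, limma adjusted p = 0.0519, range 0.00344 to 0.0519).

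The measured genes of the respiratory enzymes that receive the products of breakdown did not pass as higher. Of 24 genes listed for the tricarboxylic acid cycle and pyruvate dehydrogenase, 13 were measured, and 0 rose, 5 fell and 8 did not pass. At an unadjusted p below 0.05 the counts were 0 higher and 6 lower. Lower calls made up 14.7% of all probe sets. Of those within the level range of the 7 genes, 49.5% passed in either direction, 24.5% as higher. SDH1-1, the flavoprotein subunit of succinate dehydrogenase, read 6.97, 6.93 and 6.72 in the mutant, against 7.43, 7.56 and 7.58 in Col-0 (log2 difference -0.65, limma adjusted p = 0.00068). AT3G55410, listed as 2-oxoglutarate dehydrogenase, fell by 0.41 (0.0111) and AT2G20420, listed as succinyl-CoA ligase, by 0.38 (0.0105). SDH2-1, the iron-sulphur subunit, fell by 0.41 on its brighter probe set (0.00922), whereas the mean of its 2 probe sets had -0.23 (0.079, range over its alternatives 0.0029 to 0.079). These are limma adjusted p throughout. The fifth, AT5G55070, named after its value was seen, had -0.35 (limma adjusted p = 0.0447) and lost its call when any array but mutant replicate 2 was left out (-0.25 to -0.38, adjusted p up to 0.134, range 0.0123 to 0.134). It was also lost after median centring (0.0576) and with array weights (0.0802).

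For alternative respiration and cytochrome c, 3 of 6 listed genes were measured, of which 2 rose, 0 fell and 1 did not pass, where 14.0% of all probe sets rose. NDB2, an alternative NADH dehydrogenase, rose 2.34-fold (limma adjusted p = 0.000336), and CYTC-2, a cytochrome c gene, by 1.07 on the log2 scale (3.84e-05). CYTC-1, the second cytochrome c gene, had 0.27 (limma adjusted p = 0.0507) and passed without mutant replicate 2 (0.32, 0.049), after median centring and with a trended prior (range over its alternatives 0.0121 to 0.148).

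**Figure D4:**
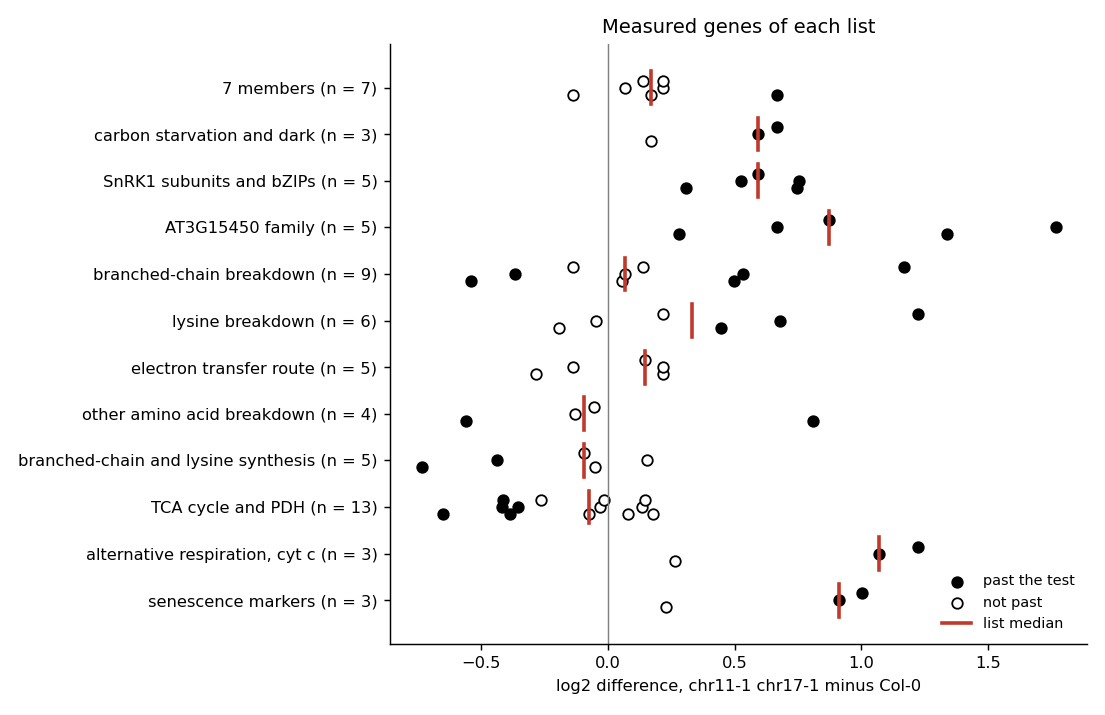
Log2 difference, chr11-1 chr17-1 minus Col-0 (horizontal axis), of every measured gene in 12 of the lists, filled where past the test, with the list median in red. The 7 genes have a median of 0.17, the AT3G15450 family 0.87, the tricarboxylic acid cycle -0.07.

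Starvation genes also respond to ageing, tissue and time of day, and the marker lists for these read as follows. Of 7 listed senescence markers 3 were measured. SAG29 and WRKY6 rose by 1.00 and 0.91 (limma adjusted p = 0.000298 and 0.000525), and WRKY53 had 0.23 (limma adjusted p = 0.0809). SAG29 read 4.02 to 4.15 in Col-0, within the 3.49 to 4.46 spanned by the root, flower and seed markers described below. Over all probe sets 14.0% were called higher and 14.7% lower, and 24.5% were called higher within the level range of the 7 genes. NOL, the single chlorophyll breakdown gene measured of 6, rose by 0.42 (limma adjusted p = 0.0276, lost without any single array but mutant replicate 3, range over its alternatives 0.00929 to 0.0837). In peroxisomal fatty acid oxidation AIM1 had 0.42 and PAHX -0.30, with limma adjusted p of 0.0231 and 0.0289, and neither call was stable. That of AIM1 was lost without mutant replicate 1 or 3 or Col-0 replicate 1 (limma adjusted p up to 0.0835), and that of PAHX without mutant replicate 1 or 3 or any Col-0 array (up to 0.0932). GI, the single clock gene measured of 13, had -0.24 (limma adjusted p = 0.118), and the hour of harvest is not given in the sources used here. MCCA was the single measured gene of 8 biotin enzymes. The part of ageing and time of day in the 7 genes was not tested.

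The leaf label fits the few markers measured, which for leaf were 2 of 10 listed genes. The leaf genes RCA and LHCB4.2 read between 13.43 and 13.71 in the mutant and between 12.90 and 13.93 in Col-0, near the top of the scale. LHCB4.2 rose by 0.54 (limma adjusted p = 0.000747). RCA had -0.23 (limma adjusted p = 0.0694) and passed as lower after quantile normalization (0.0454), with a trended prior (0.00317) and with array weights (0.0431), in a range of 0.00317 to 0.211 by limma. The 6 measured root, flower and seed markers of 9 averaged 3.80 to 3.92 per mutant array and 3.80 to 3.96 per Col-0 array, below the array medians, and 0 passed limma or had an unadjusted p below 0.05.

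The mean profile of the 5 enzyme genes over the 6 arrays, each centred on its own mean, was 0.24, 0.04 and -0.13 in the mutant and -0.16, 0.05 and -0.04 in Col-0. Among 13279 other named genes, the closest by root mean square distance were AT1G17490 (0.028), AT1G08340 (0.030), AT3G26380 (0.032), AT2G46060 (0.035) and AT3G09630 (0.038 log2 units). The 5 enzyme genes themselves lay 0.10 (MCCA) to 0.15 (D2HGDH) from that mean. None of these 5 neighbours passed limma (log2 differences 0.06 to 0.11). With 13279 candidates and 6 arrays, close matches can arise without any shared regulation, which was not tested. AT1G08340 averaged 3.96, within the 3.49 to 4.46 of the root, flower and seed markers. The profile is highest in mutant replicate 1 and lowest in Col-0 replicate 1, and the remaining 4 arrays of both genotypes interleave.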

How the data were processed

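RNA from leaves was hybridised to 6 arrays, 3 per genotype. Log2 values for each probe set were deposited by the authors. The submitters' processing notes list RMA and Partek with no version or role, and the settings used are not given in those notes. Values were used as deposited.

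Of the probe sets, 64 controls were left out and 22746 tested. Gene names were read from the platform's probe annotation (14016 probe sets, 13513 with 1 gene, 503 with several), of which 13436 were matched to loci of the TAIR10.1 gene table. The files name no genome build, so no coordinates are given. The brightest probe set stood for a gene that had more than 1, and each of the 7 genes had 1. Roles of genes known only by locus code come from general knowledge.

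The test was two-sided limma (version 3.58.1, R 4.3.3, functions lmFit and eBayes) on mutant minus wild type. P-values were adjusted by Benjamini-Hochberg across every tested probe set, and 0.05 was the threshold. The step was run on simulated data with 200 probe sets changed and independent noise. That setting differs from these data, where 28.6% passed, so it does not show how reliable the calls are here. The genes described and the lists were chosen with earlier results of these data known. There were 16 lists beside the 7 genes, with 65 of 201 different genes measured under a name. A further 2 family lists were added once the names on the array were known. Named genes are the 7, all measured genes of the 3 breakdown routes, up to 4 called genes per other list (or the 2 largest changes), and the 5 closest in pattern. Alternatives were quantile normalization, median centring, leaving out the dimmest 30%, array weights, dropping probe sets whose suffix marks cross-hybridisation, the replicate block, a trended and robust prior, averaging all probe sets of a gene, a threshold of 0.01 and leaving out each array. Figures were drawn with matplotlib 3.10.9 and tables made with pandas 2.3.3 (Python 3.11.15). The number of arrays limits the precision.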

Additional observations from a re-analysis of the deposited data

How the results depend on the processing

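Across 15 alternatives for each of the 7 genes (105 values), 101 kept direction and side of the threshold. AT3G15450 passed in all of its 15, at 0.63 to 0.73 on the log2 scale. The exceptions came from leaving out single arrays. MCCB ranged from -0.11 (without mutant replicate 1) to 0.19 and had -0.0090 without Col-0 replicate 3. IVD ranged from -0.25 to 0.045 (without mutant replicate 3). ETFQO ranged from 0.16 to 0.31 and passed without mutant replicate 3, which made 2 of the 7 genes higher in place of 1. Over the 65 measured genes of the original lists, without the 2 family lists added later, 20 were higher and 11 lower. Of all probe sets 28.6% passed, and 49.5% of those within the level range of the 7 genes, so these counts are no result about the lists. Leaving out single arrays gave 7 to 10 lower, with 7 without Col-0 replicate 3, and a threshold of 0.01 gave 5.

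Arrays with the same replicate number did not deviate together (correlations of -0.30, -0.17 and -0.17), so the numbers were not taken as pairs. With the replicate block 1 of the 7 genes was higher. Among the 65 genes of the original lists 19 were then higher and 8 lower, and over all probe sets 2768 were higher and 2914 lower. AT4G16800, AT2G28060, AT5G55070, PAHX and AT5G43830 no longer passed with the replicate block (limma adjusted p from 0.0557 to 0.104).

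The other list genes, added family lists included, had 954 values. Of these, 859 kept direction and side, 59 no longer passed, 8 newly passed and 28 changed sign. Without single arrays, the genes that changed sign ranged from -0.021 to 0.15 (AT4G31810), -0.15 to 0.028 (AT5G52810), -0.21 to 0.13 (AT5G65750), -0.12 to 0.074 (IDH-VI), -0.028 to 0.28 (AT5G23250), -0.057 to 0.011 (SDH2-2), -0.063 to 0.080 (EXPA18), -0.14 to 0.060 (AMS), -0.042 to 0.082 (AT5G07230), -0.064 to 0.070 (CLV3) and -0.049 to 0.073 (UFO). AT5G07230 had 0.0025 after quantile normalization, 0.010 after median centring and 0.027 with array weights. CLV3 had 0.0035 after centring and 0.037 with array weights, and AMS 0.020 with array weights. The cause was not tested. Dim genes had no value once the lowest 30% of probe sets were left out. Signal over background was not used here, which limits what small changes in the dimmer genes can show.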
